A study of Arabidopsis thaliana with 3 samples.

Results

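The circadian clock genes of Arabidopsis thaliana are described here by the peaks of the chromatin protein DEK2 that lie at them. The set holds 10 genes, taken by name from the 27444 nuclear protein-coding genes of the reference table: CCA1, LHY, PRR9, PRR7, PRR5, TOC1, GI, ELF3, ELF4 and LUX. Each of the names matched a gene (LUX stands there as PCL1). A peak was counted for a gene when its summit, the point of highest enrichment, lay inside the gene or within 500 bp of either end.

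The data come from 2 chromatin immunoprecipitates of 14-day-old seedlings that carry the dek2-1 mutation together with a pDEK2::DEK2-YFP transgene, a YFP-tagged DEK2 driven by the DEK2 promoter. Anti-GFP antibodies, which also bind YFP, recovered the DNA, and 1 input without antibody was made from plants of the same genotype. The mutation and the transgene are common to all samples, so no contrast between genotypes or treatments is made, and plants without the tag were not analysed here. The seedlings grew with 16 h of daylight. The sources used here do not give the time of day at harvest, which matters for genes whose activity changes through the day. Whole seedlings were used, so cell types are mixed.

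The plant clock is a loop of genes that repress each other at different times of day. CCA1 and LHY encode MYB-like transcription factors made around dawn, and the pseudo-response regulators PRR9, PRR7 and PRR5 follow through the day and repress them. TOC1, a further pseudo-response regulator, and GI, a large protein that works with light-sensing F-box proteins in the breakdown of clock and flowering regulators, peak towards dusk, as does the evening complex of ELF3, ELF4 and the DNA-binding protein LUX, which represses PRR9 at night. By this textbook timing, CCA1, LHY, PRR9 and PRR7 are the 4 morning genes here, PRR5 is kept apart as an afternoon gene, and TOC1, GI, ELF3, ELF4 and LUX are the 5 evening genes.

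All coordinates are TAIR10, counted from 1. The fold enrichment of a peak is the authors' value, a ratio over the background modelled by their peak caller, and is used to describe and rank peaks within its own list. The lists hold 25742 peaks in replicate 1 and 13307 in replicate 2, with median folds of 1.82 and 2.02. Depth differs: the peak values imply 60.5 fragments as the commonest background in replicate 1 and 22.1 in replicate 2, where no peak of that background has a fold under 1.37 in replicate 1 or under 1.69 in replicate 2. The 95% intervals given with folds are exact Poisson intervals of the fragment number at the summit, cover counting error only, and leave out that a summit is picked as the highest point. A replicate 1 peak is called shared when a replicate 2 peak overlaps it by at least 50% of the shorter one. Nothing in the labels says that the replicates came from separate batches of plants, and what differs between them may be technical. DEK2 itself had no replicate 1 peak and 1 replicate 2 peak with a fold of 1.41.

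All 4 morning genes had a shared DEK2-YFP peak, and 1 of the 5 evening genes, ELF4, had one. The afternoon gene PRR5 had none. In all, 5 of the 10 clock genes had a shared peak, while 34.2% of all nuclear protein-coding genes did. Among protein-coding genes with a length between the shortest and the longest clock gene (660 to 6040 bp) the share was 35.8%. That range takes in 24512 of the 27444 genes, so this share is not matched to the clock genes for length. The clock genes are long, with a median of 3753 bp against 2078 bp over all protein-coding genes, while morning and evening genes have similar medians of 3837 and 3918 bp. The shared peaks of the morning genes are weak in replicate 2. When a shared peak had to reach 5 in −log10 q in each list, 0 of 4 morning genes and 1 of 5 evening genes (ELF4) had one. Among all genes the share was 12.2%, and these counts are too small to order the classes.

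The morning and evening genes parted in replicate 2 and not in replicate 1. In replicate 1 all 10 clock genes had at least 1 peak, 18 peaks in total, where 66.7% of all protein-coding genes had one. In replicate 2 the count was 4 of 4 morning genes and 1 of 5 evening genes, against 37.0% of all genes. The genes of each class share the same 2 libraries and are not replicates, so no test was made between the classes. Counting PRR5 with either class adds a gene without a shared peak and leaves the 4 and 1 as they are.

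**Figure D1:**
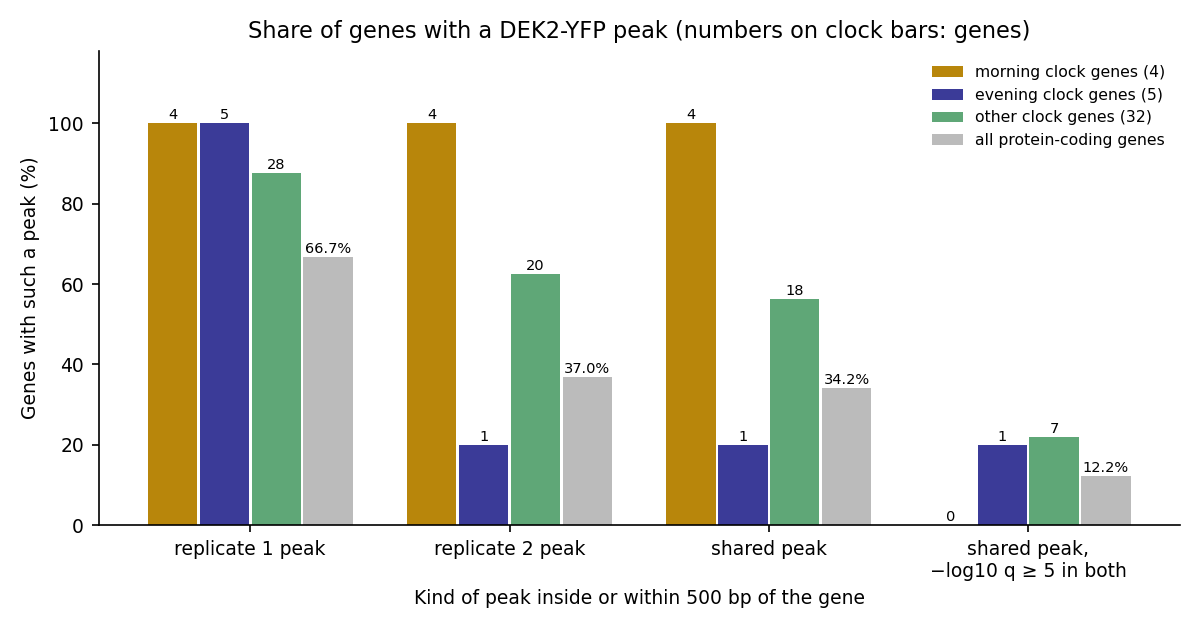
Percentage of genes (y axis) with each kind of DEK2-YFP peak inside or within 500 bp, for the 4 morning clock genes, the 5 evening clock genes, 32 other clock genes and all nuclear protein-coding genes. Replicate 1 marks every morning and evening gene, replicate 2 marks all 4 morning genes and 1 evening gene, and where both peaks must reach 5 in −log10 q the morning bar is 0.

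LHY had the strongest peak among the 10 genes in replicate 1. It lay on chromosome 1 from 32978 to 33864. The summit was 130 bp inside the gene at the end of lower coordinate, with a fold of 2.76 (2.40 to 3.17) and a −log10 q of 29.2, which is place 909 or the top 3.53% of the list. The matching replicate 2 peak, from 33369 to 33646, had its summit 51 bp away, also inside LHY (181 bp), with a fold of 1.94 (1.46 to 2.52) and a −log10 q of 3.43, the top 62.2% of that list. LHY was the only clock gene with a shared summit inside the gene, a position held by 15.3% of all protein-coding genes. The neighbouring gene PPa1 (AT1G01050) lay 324 bp from the replicate 1 summit, and a long non-coding RNA gene (AT1G03997) lay 486 bp from it. At the opposite end of LHY, replicate 1 had a weak peak 243 bp outside the gene with a fold of 1.40, which replicate 2 lacked and which lay 330 bp from UMAMIT28 (AT1G01070).

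CCA1, the close relative of LHY, had 1 peak in each replicate at the end of lower coordinate. In replicate 1 it ran on chromosome 2 from 19244911 to 19245805, the summit lying 302 bp outside the gene, and had a fold of 1.90 (1.65 to 2.18), the top 41.9% of the list. In replicate 2 it ran from 19245471 to 19245666, with the summit 49 bp outside and a fold of 1.47 (1.13 to 1.88). This replicate 2 peak was among the weakest listed, in the last percent of its list (place 13266 of 13307), with a −log10 q of 1.40. The summits lay 253 bp apart. The replicate 1 summit was nearer to PSI-P (AT2G46820) than to CCA1, at 148 bp, and the replicate 2 summit was nearer to CCA1, with PSI-P 401 bp away.

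PRR9 had its shared peak at the end of higher coordinate. On chromosome 2 from 19235334 to 19235614 replicate 1 had a fold of 2.16 (1.81 to 2.56), and replicate 2 had 1.95 (1.43 to 2.60) from 19235386 to 19235538. The summits lay 281 and 310 bp outside PRR9 and at the same time 86 and 115 bp inside the next gene, ZAT (AT2G46800). At the other end of PRR9, replicate 1 had a peak 89 bp outside the gene with a fold of 1.57, which was not shared.

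A stronger shared peak stood farther out on that side, beyond the 500 bp limit, on chromosome 2 from 19231132 to 19232244. Its fold was 3.28 (2.84 to 3.76) in replicate 1, place 108 of the list, with the summit 701 bp from PRR9 and 367 bp from AT2G46780. Replicate 2 had a pair of peaks under it, with folds of 2.25 and 1.95 and summits 741 and 1109 bp from PRR9. With a window of 1000 bp, this peak would count for PRR9, which is called in either case.

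PRR7 had replicate 1 peaks at both ends, and replicate 2 had 1 of them. The shared one lay on chromosome 5 from 642128 to 642661, with a fold of 1.86 (1.63 to 2.12) in replicate 1 and 1.80 (1.43 to 2.23) in replicate 2 and the summits 55 bp apart. They lay 357 and 412 bp outside PRR7, nearer to RHL2 (AT5G02820), at 167 and 112 bp, and at a tRNA gene (AT5G02815), 13 bp outside it in replicate 1 and 39 bp inside it in replicate 2. The peak of replicate 1 alone had its summit 353 bp inside PRR7, 466 bp from CDL1 (AT5G02800), and a fold of 1.83.

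**Figure D2:**
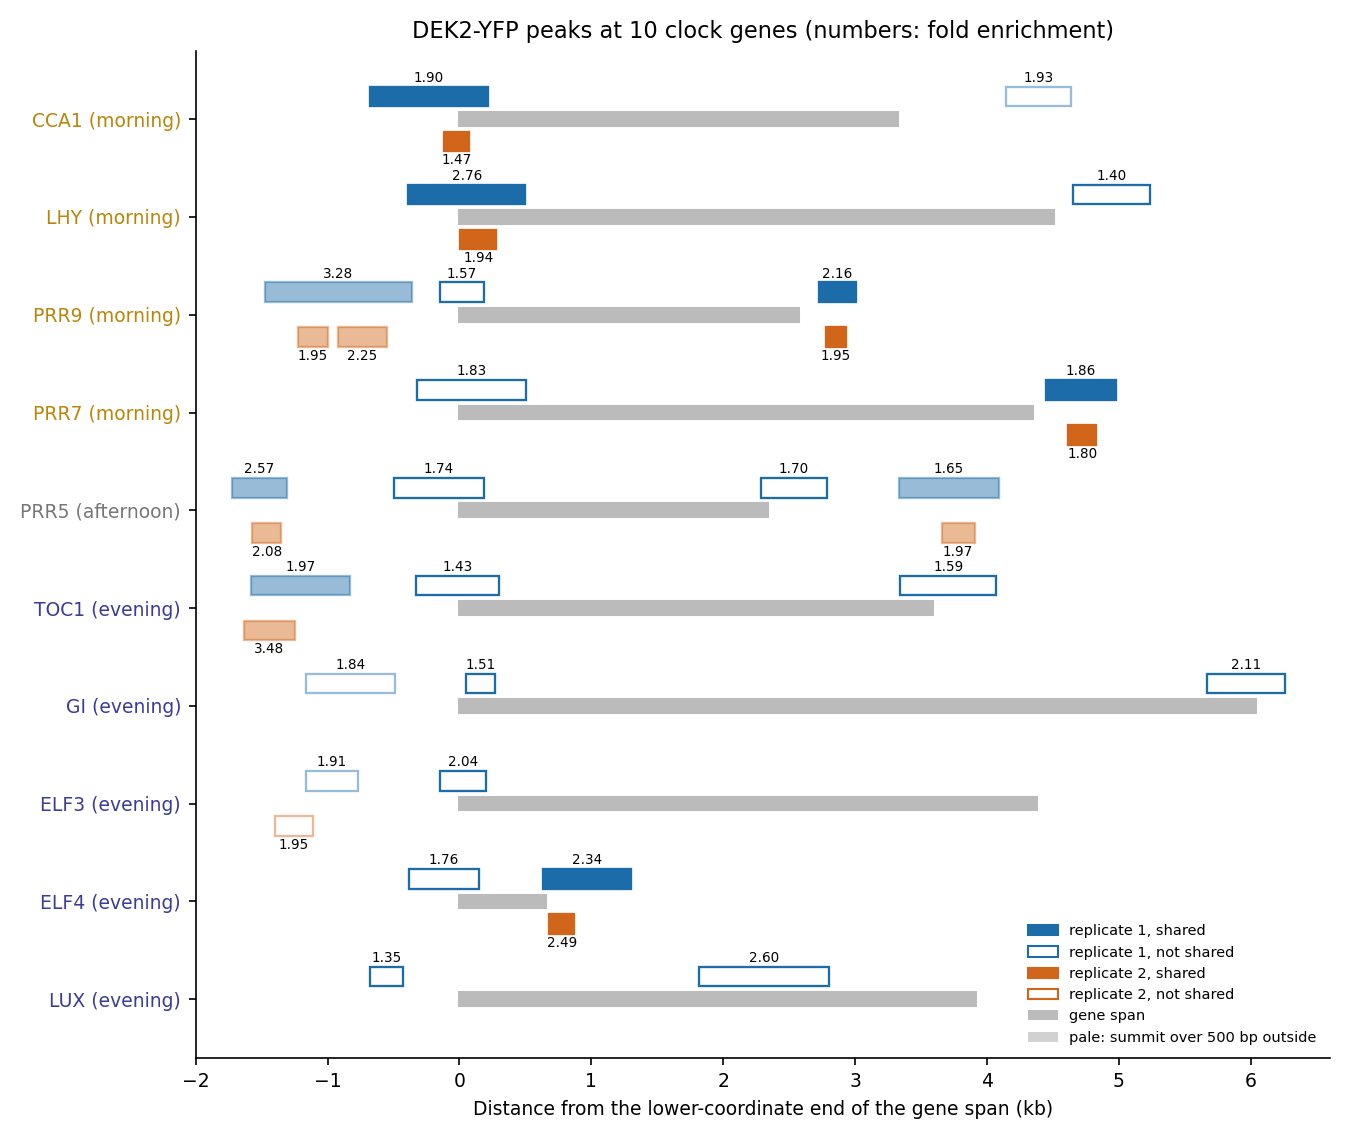
Peaks within 1500 bp of the 10 clock genes by distance from the end of lower coordinate (x axis, kb; grey bar, gene span), replicate 1 above and replicate 2 below each gene, with fold enrichments as numbers; filled boxes are shared, open ones are not, and pale ones have their summit over 500 bp outside the gene. Shared peaks within the window sit at CCA1, LHY, PRR9, PRR7 and ELF4, while PRR5 and TOC1 have shared peaks only beyond it.

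ELF4 was the evening gene with a shared peak, and its peak was the strongest of the clock genes in replicate 2. ELF4 is short, at 660 bp. The peak ran on chromosome 2 from 16734926 to 16735597 in replicate 1, with a fold of 2.34 (2.01 to 2.72) and a −log10 q of 18.4, the top 13.6% of the list. In replicate 2 it ran from 16734975 to 16735166, with a fold of 2.49 (1.95 to 3.14) and a −log10 q of 8.33, the top 9.97%. The summits lay 145 and 117 bp outside the gene on the side of higher coordinate, 28 bp apart, and no other protein-coding gene was within 500 bp. A long non-coding RNA gene (AT2G09110) lay 465 and 493 bp away. A further peak of replicate 1 had its summit 11 bp inside the other end, with a fold of 1.76.

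The other components of the evening complex had replicate 1 peaks only. LUX had a peak of 980 bp on chromosome 3 from 17184862 to 17185841 with a fold of 2.60 (2.25 to 2.99) and a −log10 q of 24.4, place 1629 or the top 6.33% of the list. Its summit lay 1656 bp from the nearest end of LUX. This is the only one of the 18 replicate 1 summits at clock genes over 500 bp inside a gene from both ends, a position of 8.91% of the replicate 1 peaks near protein-coding genes. The annotated span of LUX overlaps the next gene, AT3G46650, which began 150 bp from the summit. Replicate 2 listed no peak there, although 89.7% of the replicate 1 peaks with folds from 2.46 to 4.17 were shared. A second LUX peak, just within the limit at 495 bp outside the gene, had a fold of 1.35 and its summit inside AT3G46630.

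ELF3, which bridges ELF4 and LUX in the evening complex, had 1 replicate 1 peak on chromosome 2 from 11058795 to 11059145. Its summit was 112 bp inside the gene and its fold was 2.04 (1.74 to 2.37). Farther out, replicate 1 had a peak of 1.91 with its summit at 912 bp and replicate 2 one of 1.95 at 1259 bp, which overlapped too little to count as shared.

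GI and TOC1 had replicate 1 peaks at both ends and none in replicate 2. At GI the stronger peak ran on chromosome 1 from 8067419 to 8068008, with a fold of 2.11 (1.81 to 2.45) and its summit 127 bp outside GI but 53 bp inside the neighbour PFL (AT1G22780). The weaker peak lay 100 bp inside GI with a fold of 1.51. TOC1 had the lowest best fold of the 10 genes, with peaks of 1.59 (1.32 to 1.90) and 1.43 and summits 138 and 158 bp inside the gene. The first of these also lay 143 bp from AT5G61390. Beyond the window, at 1414 bp from TOC1, stood place 51 of the whole replicate 2 list. It ran on chromosome 5 from 24673326 to 24673717 with a fold of 3.48 (2.90 to 4.15) and was shared with a replicate 1 peak of 1.97. Its summit lay 108 bp inside AT5G61370, and the matching replicate 1 summit lay 17 bp outside that gene.

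PRR5 was marked at both ends in replicate 1, with folds of 1.74 (1.44 to 2.09) and 1.70 (1.42 to 2.01) and summits 115 and 243 bp outside the gene. The first also lay 164 bp from AT5G24460, and neither was shared. Shared peaks flanked PRR5 at a greater distance. The one on the side of lower coordinate, 1471 bp from PRR5 in replicate 1 and 96 bp inside AT5G24460, had folds of 2.57 and 2.08. The one on the opposite side, 1421 bp away within a long non-coding RNA gene (AT5G03755), had 1.65 and 1.97.

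**Figure D3:**
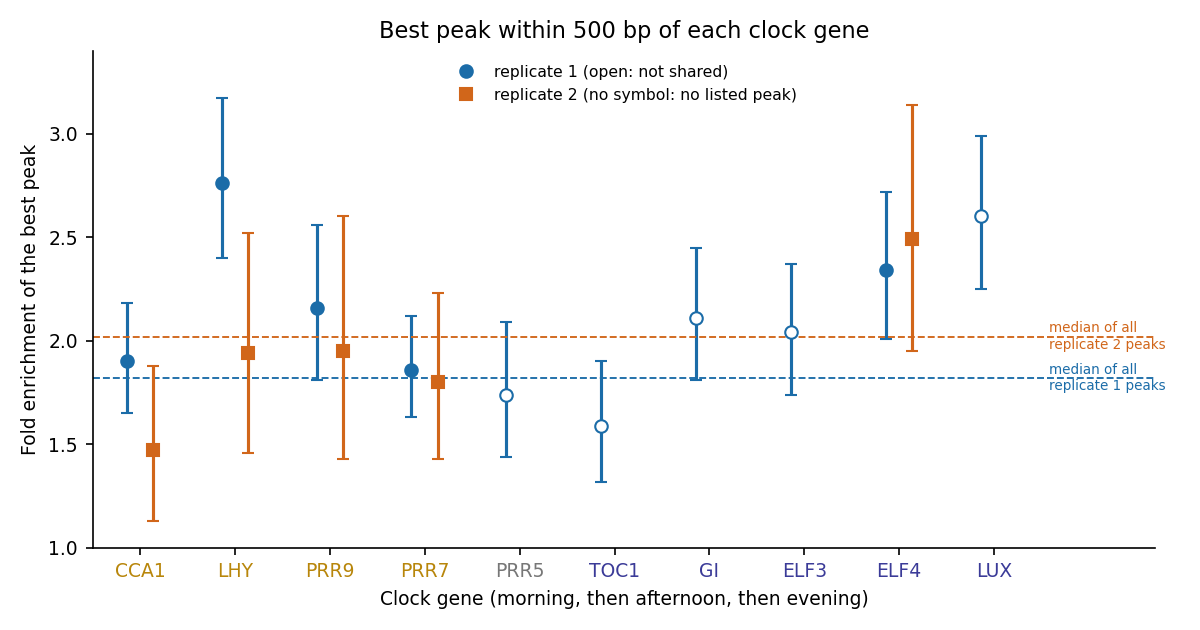
Fold enrichment (y axis) of the best peak within 500 bp of each clock gene (x axis), with 95% Poisson intervals of the fragment number and the median fold of each list as a dashed line. LHY (2.76) and LUX (2.60) are highest in replicate 1, ELF4 (2.49) is highest in replicate 2, and 5 genes have no replicate 2 symbol.

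Fold enrichments in replicate 1 did not separate morning from evening genes. The best peaks of the morning genes had a median fold of 2.03 and ranged from 1.86 for PRR7 to 2.76 for LHY, and those of the evening genes had a median of 2.11 and ranged from 1.59 for TOC1 to 2.60 for LUX, so the classes overlap. Over all 10 clock genes the median of the best replicate 1 folds was 2.08, set beside 1.93 over the 18303 protein-coding genes with a replicate 1 peak. These medians are not matched for gene length or for the number of peaks per gene. In replicate 2 the 4 morning genes ran from 1.47 for CCA1 to 1.95 for PRR9, all below the list median of 2.02, and the single evening gene ELF4 had 2.49.

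The share of replicate 1 peaks found again in replicate 2 grew with fold, so the best peak of each clock gene was set beside the peaks of its own bin, with the list cut by fold into 10 bins of like size. LHY, in the highest bin (89.7% shared), and ELF4, in the next (74.0%), carried peaks of a kind that is mostly found again. CCA1 and PRR7 were shared from a bin in which 39.5% of peaks were, and PRR9 from one with 59.5%. GI, in the same bin as PRR9, was not shared, nor was ELF3 in the bin with 49.8%. LUX was the exception at the top, unshared where 89.7% of peaks were shared. For TOC1 (20.9%) and PRR5 (31.2%) most peaks of like fold were not shared either. Replicate 2 is the shallower list, and whether depth accounts for the missing peaks was not tested.

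**Figure D4:**
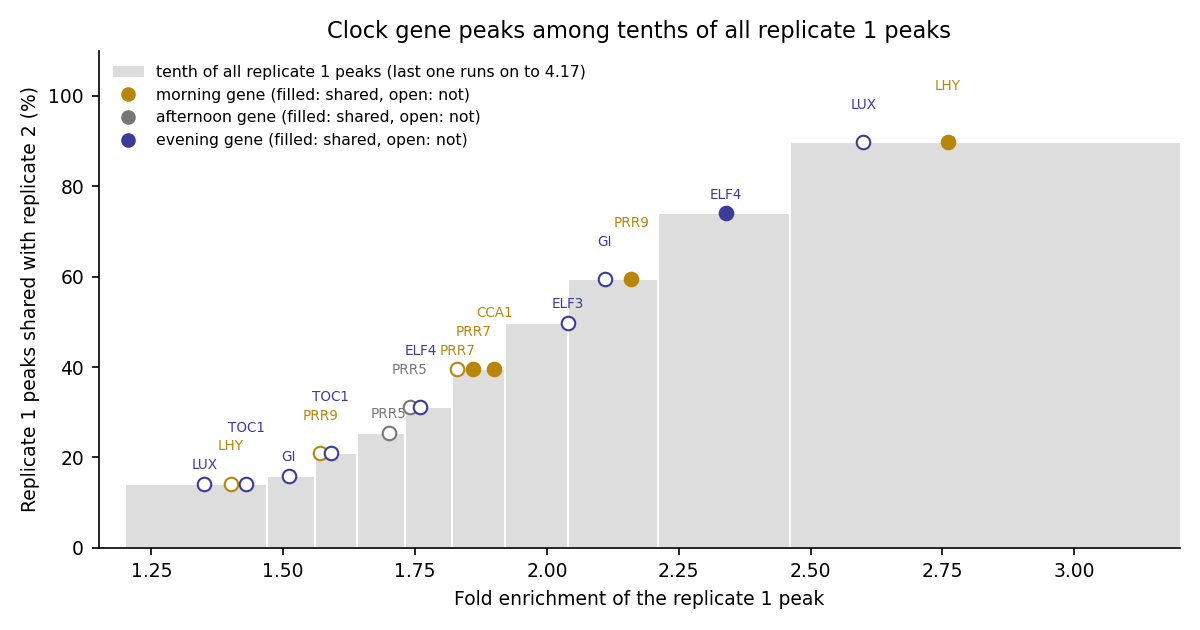
Share of replicate 1 peaks found again in replicate 2 (y axis) by bin of fold enrichment (x axis; grey bars, all peaks), with the 18 clock gene peaks placed at their fold, filled when shared and open when not. LUX at 2.60 is open in a bin with 89.7% shared, while CCA1 and PRR7 are filled in one with 39.5%. The bins do not account for differences in background between peaks.

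By distance to the gene ends, the replicate 1 summits lay about the clock genes much as they did about genes in general. Of the 18 replicate 1 summits 10 lay outside the gene, 7 inside within 500 bp of an end and 1, that of LUX, deeper inside. Over all protein-coding genes and the replicate 1 summits in their windows, 55.3% lay outside, 38.0% inside within 500 bp of an end and 6.69% deeper. The median distance to the nearest end was 151.5 bp at the clock genes and 140.0 bp over all genes. Of the 5 replicate 2 summits 4 lay outside and 1 inside, where 59.1% lay outside over all genes. Different replicate 1 summits marked both ends in 7 of the 10 clock genes (LHY, PRR9, PRR7, PRR5, TOC1, GI and ELF4), against 25.3% of all protein-coding genes. That share takes in genes with no replicate 1 peak and is not matched for length, while the clock genes are long. The 7 include 3 of 4 morning and 3 of 5 evening genes. The reference table gives no strand, so gene starts and ends were not told apart.

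Most shared peaks at clock genes also lay near a neighbour. Of the 5 clock genes with a shared peak, 4 had another protein-coding gene within 500 bp of the replicate 1 summit. Over the whole genome 31.1% of the shared peaks near protein-coding genes lay near more than 1. The first value counts genes and the second counts peaks, so they cannot be compared directly. LHY and ELF4 were nearer to the summit than any other protein-coding gene in both replicates. CCA1 was so in replicate 2 only, and PRR9 and PRR7 in neither. With 1 position for several genes, the peak cannot be ascribed to the clock gene from these data.

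A wider list of 32 clock and clock-associated genes was described in the same way. Of these, 18 had a shared peak (56.2%, against 34.2% of all protein-coding genes), 28 had a replicate 1 peak (87.5%, against 66.7%) and 20 a replicate 2 peak (62.5%, against 37.0%). The median length of the list was 2399 bp. The folds of the best shared peaks ran from 1.61 to 2.78 in replicate 1 (median 2.25) and from 1.51 to 2.52 in the matching replicate 2 peaks (median 1.90). With the stricter demand of 5 in −log10 q in each list, 7 of the 32 kept one, which is 21.9%, against 12.2% of all protein-coding genes. The best shared summit lay outside the gene in 13 and inside in 5. A shared summit inside the gene was thus held by 15.6% of the 32, close to the 15.3% of all protein-coding genes. In 9 of the 18 the best shared summit also lay near another gene of any kind. These are ZTL, LKP2, LWD1, LWD2, RVE8, ELF4-L4, CHE, CO and GRP7. Their peaks cannot be ascribed to the named gene from these data.

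The light-sensing F-box proteins that target clock proteins for breakdown, ZTL and its relatives FKF1 and LKP2, all had a shared peak. Over all protein-coding genes the share was 34.2%. The folds in replicates 1 and 2 were 2.05 and 2.10 at ZTL, 1.77 and 1.51 at FKF1, and 1.78 and 2.18 at LKP2. Shared peaks were also found at LWD1 (2.15 and 2.28) and LWD2 (2.31 and 1.92), WD-repeat proteins that raise the activity of clock genes, and at both listed beta subunits of casein kinase 2, the kinase that phosphorylates CCA1, with 2.25 and 1.56 at CKB3 and 2.40 and 2.28 at CKB4. CKB3 and CKB4 each had 2 shared peaks.

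Of 8 genes listed as the REVEILLE family of CCA1-like MYB factors, 4 had a shared peak, beside 34.2% of all protein-coding genes. RVE2 had 2.76 and 1.78, AT5G52660 had 2.61 and 1.85, EPR1 (REVEILLE 7 in the reference table) had 1.84 and 2.35, and RVE8, an activator of evening genes, had 1.79 and 1.57. RVE1, RVE4 and AT4G01280 had replicate 1 peaks only, with best folds of 1.59, 2.18 and 1.57, and ASG4 had no listed peak. None of the 4 LNK genes, coactivators that act with RVE8, had a shared peak. These families are small, and none was tested against the share of all genes. LNK2 had 1 peak in each replicate, and LNK4 had 3 in replicate 1 and 1 in replicate 2, without a match. LNK3 had 1 in replicate 1 with a fold of 1.34, and LNK1 had none.

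Among relatives of the evening genes, 2 of the 4 ELF4-like genes had a shared peak, beside 34.2% of all protein-coding genes. ELF4-L2 had 2 shared peaks, the better with folds of 2.36 and 2.23, and ELF4-L4 had 1 with 1.81 and 2.01, while ELF4-L1 and ELF4-L3 had no listed peak. BOA, the closest relative of LUX, had 3 replicate 1 peaks with a best fold of 1.55. It had none in replicate 2, where 37.0% of all protein-coding genes had one. PRR3, the remaining pseudo-response regulator, had 1 replicate 1 peak of 1.88.

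Among single regulators, TIC had the strongest shared peak of the wider list. TIC, a nuclear regulator of clock timing, had folds of 2.78 and 2.52 on chromosome 3 from 7919047 to 7920052, with the summit 93 bp outside the gene. CHE, a TCP factor that represses CCA1, had 2.36 and 1.62, and XCT had 1.61 and 1.87. JMJ30 (JMJD5 in the reference table), a JmjC-domain protein, had 2 replicate 1 peaks and none in replicate 2. Of the genes through which the clock acts, CO, the activator of flowering in long days, had a shared peak of 2.27 in replicate 1. That summit lay 428 bp outside the gene and near 3 other genes of any kind. The matching replicate 2 peak, of 1.88, had its summit beyond the 500 bp limit. A different replicate 2 peak, of 2.21, was the only one within that limit. GRP7, a clock-controlled RNA-binding protein, had 2.26 and 1.80, and CDF1, a repressor of CO, had 3 replicate 1 peaks and none in replicate 2.

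**Figure D5:**
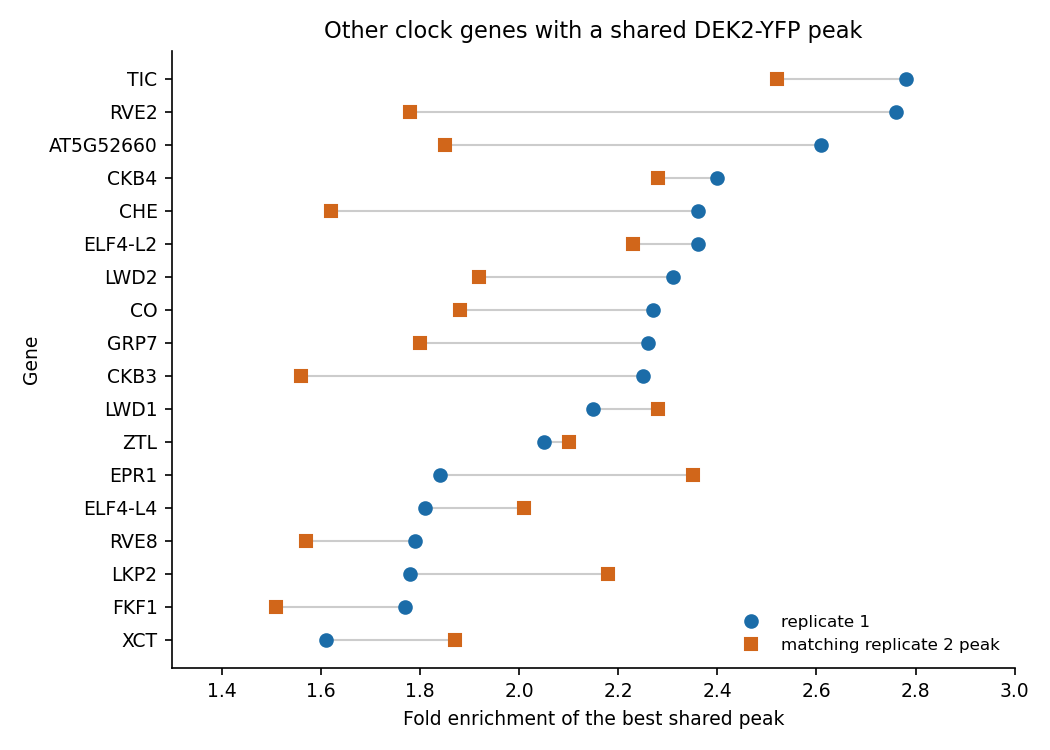
Fold enrichment (x axis) of the best shared peak in replicate 1 and of its matching replicate 2 peak for the 18 genes of the wider clock list that have one (y axis, ordered by replicate 1). TIC is at the top with 2.78 and 2.52, and XCT is at the bottom with 1.61 and 1.87.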

How the data were processed

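Per the labels' protocols, chromatin of formaldehyde-crosslinked seedlings was sonicated and immunoprecipitated with anti-GFP antibodies. The submitters' processing notes name Trimmomatic 0.38, Bowtie2 2.3.5, SAMtools 1.9, MACS2 2.2.7.1 and TAIR10; the sources used here do not say how the input entered peak calling. The authors deposited 1 narrowPeak list per immunoprecipitate. Each deposited peak has a fold enrichment, a ratio over the modelled background, with −log10 p and q values, which the authors' caller gives per peak, and a deposited score made from q, which was not used.

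Gene spans came from a RefSeq table of TAIR10.1, used for names and for placing summits, and none of its coordinates is printed. Of the 32 further clock genes, 7 matched by their locus only and the other 25 by name as well. Fragment numbers were solved from fold and p under MACS2's formulas. Pileups were whole within 0.03 fragments in 95.7% (replicate 1, after a scaling of 0.894) and 100% (replicate 2) of 3000 peaks each. The matching and counting were tested on simulated data. Python 3.11.15, pandas 2.3.3 and SciPy 1.17.1 were used.

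The 10 clock genes, the wider list and the alternatives were chosen with earlier results of these data known. The text names all 10, the genes within 500 bp of their counted peaks, DEK2, and every gene or family of the wider list with a shared peak; the further genes of that list complete its families and were named after their values were seen. The motif search planned for promoters was not run.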

Additional observations from a re-analysis of the deposited data

How the results depend on the processing

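No paired analysis was possible because both immunoprecipitates belong to 1 group and no test compares groups. Over 45 alternative values 28 stayed within 1.5 times the value given and 17 moved. An overlap of 1 bp, a window of 1000 bp and the replicate 2 summit each kept 5 clock genes (CCA1, LHY, PRR9, PRR7 and ELF4), while the share of all genes was 34.7%, 40.8% and 34.1%, against 34.2%. The wider list had 20, 19 and 17 genes under these settings, against 18. Each of the following left 1 of the 10 clock genes. Requiring 50% of both peaks left PRR9 (1 morning gene, 0 evening genes) and 8 of the 32 wider genes, where 16.7% of all genes were called. Asking both peaks for 5 or more in −log10 q left ELF4 (0 morning genes, 1 evening gene) and 7 wider genes, where the share was 12.2%. Summits inside the gene left LHY (1 morning gene, 0 evening genes) and 5 wider genes, where it was 15.3%. With 1 replicate left out, the counts ran from 5 to 10 over the 10 clock genes and stayed at 4 for the morning genes. They ran from 1 to 5 for the evening genes and from 20 to 28 for the wider list. The lower values are those of replicate 2 alone, where 37.0% of all genes were called. The upper values are those of replicate 1 alone, where 66.7% were. In replicate 2, 1 clock gene had a peak at a −log10 q of at least 5 (13.6% of all genes), 1 with the summit inside (17.0%) and 2 by any overlap of peak and gene (26.5%), against 5 (37.0%). The share of all genes was also lower under each of these settings. Ranking by −log10 q put the median best replicate 1 peak of the clock genes in the top 25.9% of the list, against 27.9% by fold. The contrast of morning and evening genes thus rests on replicate 2 peaks with a −log10 q between 1.40 and 4.10. A gene without a listed peak may be enriched below the threshold, which depends on depth.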
